A study of Mus musculus with 6 samples.

Results

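The 8 genes described here encode the classical MHC class I molecule of mouse T cells and the machinery that loads it with peptide: the heavy chains H2-K1 and H2-D1, their light chain B2m, the peptide transporter subunits Tap1 and Tap2, the loading chaperone Tapbp, the trimming aminopeptidase Erap1 and the transcriptional activator Nlrc5. They were chosen by gene name, and all 8 were found among the 13883 genes of the deposited table. RNA sequencing compared CD8 T cells treated with 20 mM DAHB with CD8 T cells treated with 20 mM NaCl, in a study whose title names mitochondrial ATP, T cell function and chromatin accessibility. The cells of both groups came from the spleen and lymph nodes of mice labelled wild-type and had been activated with antibodies to CD3 and CD28. Each group had 3 samples of 100000 cells, and treatment lasted overnight. DAHB is known here only by that name, and the strain, sex and age of the mice are not given in the sources used here. The labels do not say whether the samples within a group are separate cultures or animals. The p-values therefore cover the spread among these samples only, and that spread may be technical.

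A class I molecule is a heavy chain held together with beta-2-microglobulin and a short peptide. Peptides are cut from proteins by the proteasome and by cytosolic peptidases, are carried into the endoplasmic reticulum by the transporter formed from TAP1 and TAP2, are trimmed there by ERAP1, and are exchanged on the heavy chain with the help of tapasin, the product of Tapbp. Lymphocytes display class I at high levels, and in them the heavy chain, light chain, transporter and immunoproteasome genes are switched on in part by NLRC5, which acts through proteins bound to a conserved promoter module, and by factors downstream of interferon and NF-kappaB.

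The DAHB libraries held 31055613 to 33179197 reads counted in the table's genes and the NaCl libraries held 31436459 to 56007582. Values are normalised read counts, in which the reads of a library are scaled by its own size factor, so a gene that rose or fell did so relative to the bulk of genes. The summed normalised count of 8 CD8 T cell genes, 8 of 8 in the table, was 60444 to 64082 in DAHB libraries and 55244 to 55739 in NaCl libraries. Of these 8, 3 rose, 3 fell and 2 did not pass: the coreceptor genes Cd8a and Cd8b1 rose (log2 fold changes of 0.59 and 0.51), and the T cell receptor genes Trac and Trbc1 fell (-0.31 and -0.22), Trbc1 without passing under quantile normalisation (-0.11, adjusted p = 0.0805). Markers of other cell types were also present: 1 of 6 B cell genes was in the table, and this gene, Cd79b, had 549 to 623 in DAHB libraries and 118 to 149 in NaCl libraries. Of 8 macrophage and dendritic cell genes 6 were in the table, with sums of 1379 to 1654 in DAHB libraries and 654 to 1253 in NaCl libraries. The most abundant, Lyz2, overlapped between the groups (531 to 826 in DAHB libraries and 297 to 583 in NaCl libraries). Its call as higher was lost with limma's robust prior, in DESeq2 and without NaCl replicate 1 (adjusted p = 0.0503 to 0.151). Cd68 and Adgre1 (in 12 of 16 alternatives) also rose, and Csf1r and Fcgr1 did not pass (0.55 and -0.25, adjusted p = 0.148 and 0.559). Itgax had 20.9 to 34.0 in DAHB libraries and 3.29 to 25.4 in NaCl libraries. Of 4 CD4 T cell genes 3 were in the table, with sums of 1561 to 1885 in DAHB libraries and 659 to 675 in NaCl libraries. Most of that last sum was Zbtb7b (1459.6 to 1745 in DAHB libraries and 586 to 611 in NaCl libraries), while Cd40lg had 57.5 ± 10.2 in DAHB cells and 54.5 ± 2.33 in NaCl cells (adjusted p = 0.813). Cd4 itself had 54.2 to 72.4 in DAHB libraries and 6.24 to 18.8 in NaCl libraries (log2 fold change 2.51). Only 1 NaCl library reached the minimum of 10 for it, so Cd4 was in the test because of the group in which it is high. The NK cell list had 1 of its 3 genes in the table, Klre1, with 27.8 to 60.6 in DAHB libraries and 14.4 to 21.8 in NaCl libraries. No marker in the table had a mean of 0 in either group. The other listed markers, Ms4a1 among them, were not in the table, whose lowest sum of reads for any gene over the 6 libraries was 61, so their levels are not measured here. The part of these cells in the results below was not tested, and in bulk RNA fewer cells of a type and less RNA per cell cannot be told apart.

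Among the 8 genes, H2-D1 and Nlrc5 rose, Erap1, Tapbp and Tap1 fell, and H2-K1, B2m and Tap2 did not pass the test (limma on log2 values over 13804 genes, two-sided, Benjamini-Hochberg adjusted p under 0.05). The count of 5 of 8 stands against a background of 58.5% of all tested genes called, 29.4% higher and 29.1% lower. Among genes averaging 1000 or more normalised reads, to which all 8 belong, 68.3% were called, 22.9% higher and 45.3% lower. The tests of edgeR and DESeq2 on whole reads called 58.6% and 55.6% of all genes, and each also found 2 of the 8 higher and 3 lower. In 5 of the 8 genes the DAHB libraries lay all above or all below the NaCl libraries, which held for 63.4% of all genes tested and 72.1% of genes with a mean of at least 1000. The shares of called and of non-overlapping members were thus close to the background, and the median log2 fold change of the 8 was 0.01, against 0.00 over all genes tested. None of the 8 changed 2-fold, a size reached by 1459 genes in the higher direction (10.6%) and 272 in the lower (1.97%), or by 1022 and 634 genes under quantile normalisation. Per kilobase of exon the order of mean levels in DAHB cells was B2m, H2-D1, H2-K1, Tap1, Tap2, Tapbp, Erap1 and Nlrc5, from 39775 to 274 normalised reads per kilobase, and every step was larger than the SD of either neighbour. In NaCl cells H2-K1 stood before H2-D1 and Tapbp before Tap2, from 38950 for B2m to 228 for Nlrc5. The genes of each of these 2 pairs differed by less than the larger of their SDs in NaCl cells, where H2-K1 had 13747 ± 480 and H2-D1 13370 ± 578 per kilobase, and Tapbp had 1748 ± 34.0 and Tap2 1689 ± 99.7 (SD, n = 3).

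**Figure D1:**
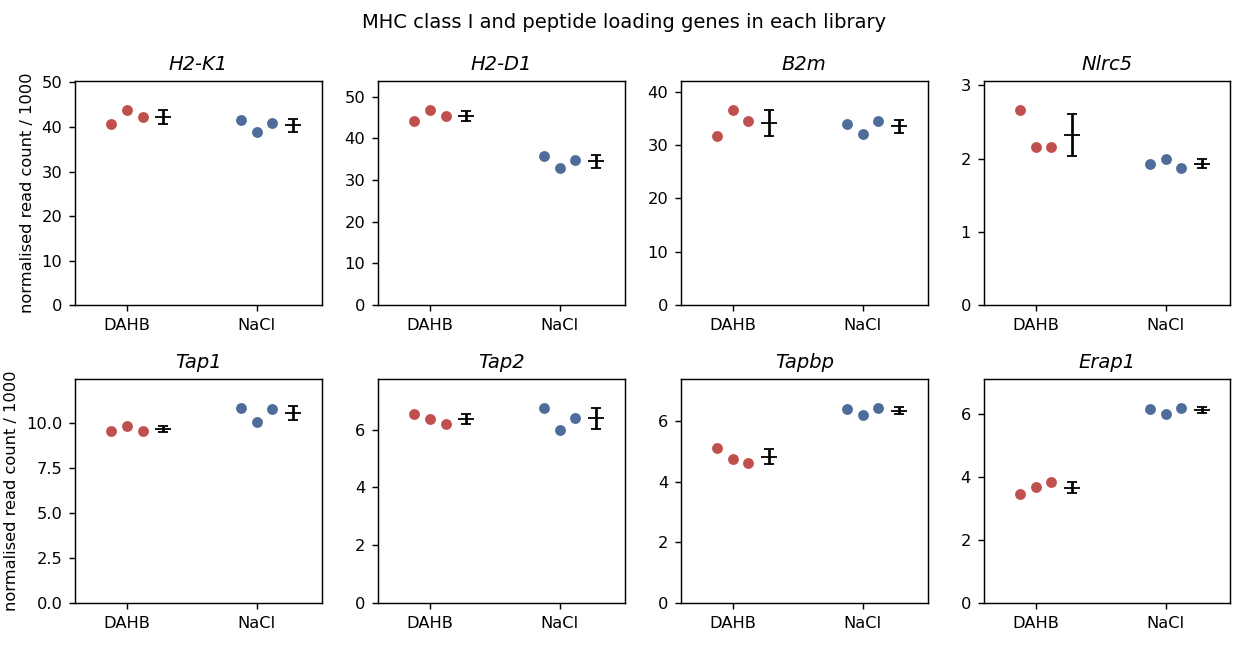
Normalised read count divided by 1000 (vertical axes, each from 0) of the 8 genes in the 3 DAHB libraries (red, left) and the 3 NaCl libraries (blue, right), with the mean and SD as black bars. The groups are apart for H2-D1, Nlrc5, Tap1, Tapbp and Erap1, and they overlap for H2-K1, B2m and Tap2.

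Of the 2 classical heavy chains, H2-D1 rose and H2-K1 did not pass the test. H2-D1 (ENSMUSG00000073411, chr17:35262730-35267499, plus strand, GRCm38) encodes the D heavy chain, which presents peptide to T cell receptors and is read by NK cell receptors. Its normalised count was 44153, 46734 and 45258 in the DAHB libraries, against 35700, 32818 and 34926 in the NaCl libraries. All 3 DAHB libraries were above all 3 NaCl libraries, and the rise was 1.32-fold (log2 fold change 0.40, SE 0.048, 95% interval 0.29 to 0.50, adjusted p = 6.97e-06). H2-K1 (ENSMUSG00000061232, chr17:33996017-34000347, minus strand) encodes the K heavy chain, with the same role. It had 40600, 43750 and 42256 in DAHB libraries, against 41529, 38812 and 40822 in NaCl libraries. The groups overlapped, the lowest DAHB library lying inside the NaCl range, and the log2 fold change was 0.06 (95% interval -0.04 to 0.17, adjusted p = 0.274). Leaving out DAHB replicate 1, that lowest library, took H2-K1 past the threshold at a log2 fold change of 0.09 (adjusted p = 0.0484).

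The ratio of H2-K1 to H2-D1 counts within a library does not depend on the size factor. It was 0.920, 0.936 and 0.934 in DAHB libraries, against 1.16, 1.18 and 1.17 in NaCl libraries. H2-D1 thus had more reads than H2-K1 in every DAHB library, and H2-K1 had more in every NaCl library. The means were 0.930 ± 0.0090 in DAHB cells and 1.17 ± 0.00997 in NaCl cells (SD, n = 3 each), a log2 difference of -0.33. The exact two-sided permutation test gave p = 0.1, which is the smallest value that 3 against 3 libraries allow, so no ratio here can pass a threshold of 0.05. This ratio is of read counts, not of molecules, since the exons of H2-K1 span 2938 bases and those of H2-D1 2579.

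Heavy chain genes are near copies of each other, and how the authors' counting treated reads that fit more than 1 of them is not given in the sources used here. Of the 100-base stretches in annotated transcripts, 0.957% of those of H2-K1 and 3.59% of those of H2-D1 occurred in another gene, and at 50 bases these shares were 9.63% and 12.8%. B2m, Erap1 and Nlrc5 had none at either length. The alleles carried by the mice are not known either, and reads of another haplotype than that of the reference may be counted less fully in both groups.

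The stretch upstream of these heavy chains holds the module through which NLRC5 and interferon act. It is shown because H2-D1 passed the test and H2-K1 did not while both carry it. A further reason is that of 2 other heavy chain genes with matches to the same letters H2-Q7 rose and H2-Q4 fell. The windows are from RefSeq on GRCm38.p6, written 5′ to 3′ on the strand of the gene, and 6 of the 8 genes and 11 of the 16 other heavy chain genes tested were found there. Of the 2 starts listed for H2-K1 the one with the higher coordinate was taken. Capitals mark matches, on either strand, to the NF-kappaB enhancer A (GGGATTNCC), an interferon response element (TTTCNNTT), the cyclic AMP response element core of the X2 box (TGACG) and the inverted CCAAT box (ATTGG), where N is any base. The windows are H2-K1 at chr17:34000353-34000463 (minus strand), H2-D1 at chr17:35262918-35263051, H2-Q7 at chr17:35439017-35439149, H2-Q4 at chr17:35379438-35379572 and B2m at chr2:122147544-122147644 (plus strand for the last 4).
H2-K1: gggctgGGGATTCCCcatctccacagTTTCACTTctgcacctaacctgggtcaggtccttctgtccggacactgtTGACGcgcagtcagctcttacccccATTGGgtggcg
H2-D1: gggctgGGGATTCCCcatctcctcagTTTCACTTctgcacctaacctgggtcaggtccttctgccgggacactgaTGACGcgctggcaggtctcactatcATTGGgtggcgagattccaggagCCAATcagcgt
H2-Q7: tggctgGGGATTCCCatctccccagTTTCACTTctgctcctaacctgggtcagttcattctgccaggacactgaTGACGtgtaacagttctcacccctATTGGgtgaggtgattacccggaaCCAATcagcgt
H2-Q4: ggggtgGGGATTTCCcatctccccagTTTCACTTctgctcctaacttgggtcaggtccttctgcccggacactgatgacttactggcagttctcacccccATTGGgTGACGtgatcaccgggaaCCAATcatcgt
B2m: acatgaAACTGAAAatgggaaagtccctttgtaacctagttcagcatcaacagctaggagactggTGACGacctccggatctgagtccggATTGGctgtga
H2-K1 and H2-D1 had the same letters in all of the first 4 matches and at equal spacing, the X2 core starting 69 bases and the CCAAT box 94 bases after the start of enhancer A, and H2-D1 had a further CCAAT match on the other strand. At the same spacing such a match in H2-K1 would lie past its annotated start, where the search ended. Over the bases that align in both windows, H2-K1 and H2-D1 were identical at 90.1% of 111 bases, H2-D1 and H2-Q7 at 85.6% of 132 and H2-Q7 and H2-Q4 at 88.7% of 133. In H2-Q4 the letters TGACG were found after the first inverted CCAAT box, at base -73 from the annotated start and 100 bases after the start of enhancer A. Between the interferon element and that box, where H2-K1, H2-D1 and H2-Q7 have TGACG, H2-Q4 reads TGACT, which is no match. The TGACG of H2-Q4 is thus a match of letters away from the X2 position of those genes. The 4 motifs were together in 6 of 32851 RefSeq windows of 250 bases upstream of a start (0.0183%), which belonged to H2-K1, H2-D1, H2-Q7, H2-Q4 and the predicted gene Gm36048. Singly, the enhancer GGGATTNCC was in 0.822%, TTTCNNTT in 21.3%, TGACG in 17.8% and ATTGG in 33.8% of windows. B2m had 3 of the 4, Tap1 the X2 core and a CCAAT box, Tapbp a pair of CCAAT boxes and Erap1 none. Tap2 and Nlrc5 had no window. The motif that B2m lacked was GGGATTNCC, and other forms of NF-kappaB sites were not searched. A match is a description of letters and says nothing about binding, and the letters searched were chosen after the sequences had been seen.

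**Figure D2:**
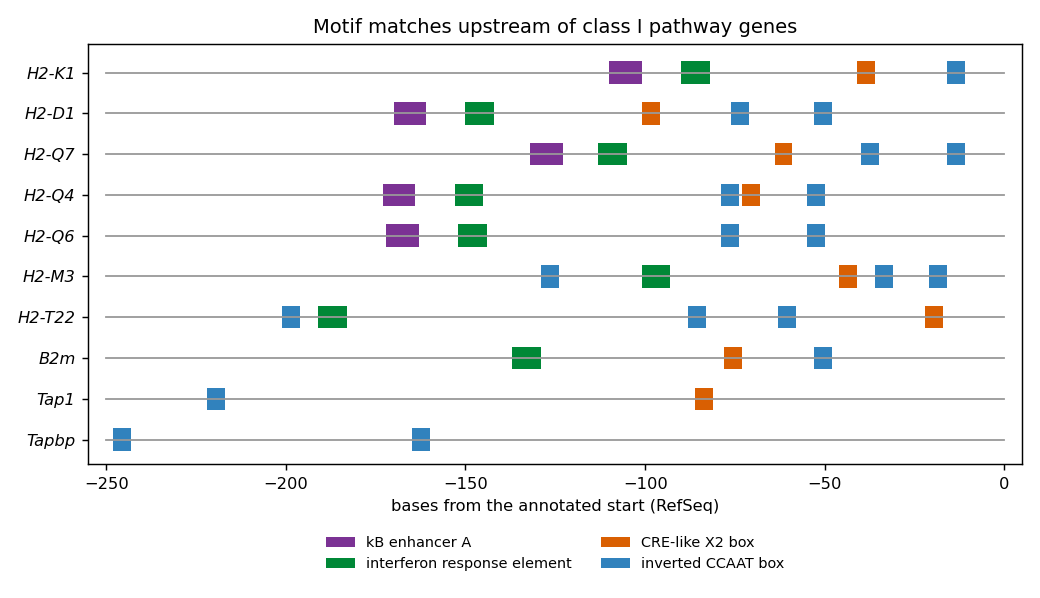
Positions, in bases from the annotated RefSeq start (horizontal axis), of matches to the 4 motifs in the 250 bases upstream of 10 genes with matches, of which 5 are among the 8 described and 5 are other heavy chains. Enhancer A, the interferon element, the X2 core and the CCAAT box follow in that order in H2-K1, H2-D1 and H2-Q7. In H2-Q4 the match to TGACG comes after the first CCAAT box, away from the X2 position of those genes.

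The other class I heavy chains are the nonclassical and class I-like genes. Of 32 listed, 16 were in the table and were tested. Of these, H2-Q2, Gm8909 and Fcgrt reached the minimum of 10 in all 3 DAHB libraries and in 0, 0 and 2 NaCl libraries, so they were in the test because of the group in which they are high and are left out of the counts. Of the other 13, which reached it in every library, 7 rose, 2 fell and 4 did not pass, with a median log2 fold change of 0.48, against 0.00 over all genes tested, of which 29.4% rose and 29.1% fell. Their values beside those of H2-K1 and H2-D1 are a description, since no test of the list against other genes was made. H2-Q7, which encodes the Qa-2 antigen, had 15009, 15865 and 14921 in DAHB libraries, against 6364, 6094 and 6180 in NaCl libraries, and rose by 1.30 on the log2 scale (SE 0.043, adjusted p = 2.72e-11). Every DAHB library had more than 2 times the count of any NaCl library, and per kilobase of exon H2-Q7 had 3579 ± 122 in DAHB cells against 17597 ± 502 for H2-D1. H2-T23, which encodes Qa-1, the ligand of NKG2A receptors, had 10262 ± 127 in DAHB cells and 10272 ± 313 in NaCl cells (SD, n = 3), and did not pass the test (adjusted p = 0.986), with a log2 fold change between -0.03 and 0.05 over the alternatives. Mr1, which presents vitamin B metabolites to MAIT cells, had 446 ± 6.88 in DAHB cells and 156 ± 6.65 in NaCl cells, and H2-T24 had 451 ± 47.2 in DAHB cells and 179 ± 15.8 in NaCl cells (log2 fold changes of 1.51 and 1.32). Fcgrt, the neonatal Fc receptor chain that also pairs with B2m and 1 of the 3 left out of the counts, had 110 ± 27.9 in DAHB cells and 15.4 ± 5.76 in NaCl cells. H2-Q10 had 224 ± 29.9 in DAHB cells and 20.3 ± 3.33 in NaCl cells, beside shared 50-base stretches with other genes of 19.0%, most of them with H2-Q7. H2-Q4 fell to 1006 ± 101 in DAHB cells, against 2080.5 ± 71.6 in NaCl cells (log2 fold change -1.05, adjusted p = 1.88e-08). It shared 21.8% of its 50-base stretches and 2.16% of its 100-base stretches with other genes, and 19.1% of its exon bases with an antisense RNA. H2-M3, which presents formylated peptides, fell to 507 ± 40.0 in DAHB cells, against 808 ± 24.4 in NaCl cells (-0.67). H2-Q4 and H2-M3, the only 2 of the 16 that fell, were named after their values were seen, as was H2-Q6.

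**Figure D3:**
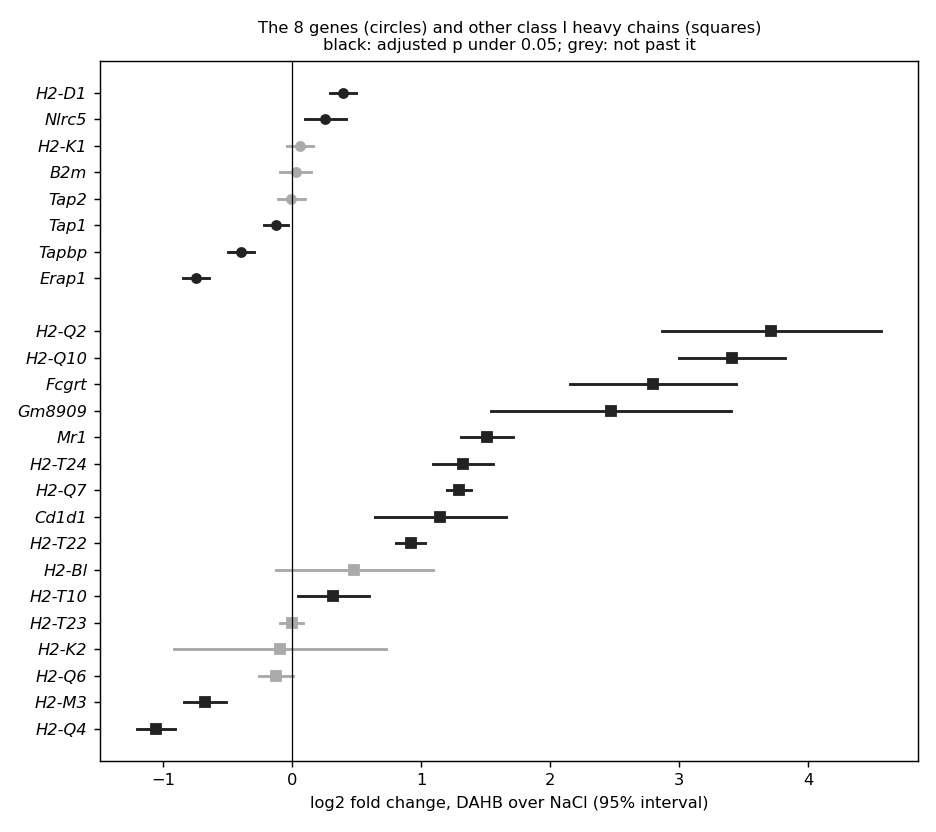
Log2 fold change, DAHB over NaCl (horizontal axis), with its 95% interval, of the 8 genes (circles, above) and of the 16 other heavy chain genes tested (squares, below), black where the adjusted p was under 0.05. The 8 lie between -0.74 for Erap1 and 0.40 for H2-D1, and H2-Q7 lies at 1.30 with H2-Q4 at -1.05.

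B2m (ENSMUSG00000060802, chr2:122147686-122153083, plus strand) encodes beta-2-microglobulin, the light chain without which most class I heavy chains do not reach the cell surface. Its counts were 31652, 36497 and 34471 in DAHB libraries, against 33848, 32136 and 34506 in NaCl libraries. The groups overlapped, with the lowest and the highest of the 6 libraries both in the DAHB group, and the log2 fold change of 0.03 had a 95% interval of -0.09 to 0.15 (adjusted p = 0.683). The counts of H2-K1 and H2-D1 together per count of B2m were 2.68, 2.48 and 2.54 in DAHB libraries, against 2.28, 2.23 and 2.20 in NaCl libraries. The groups did not overlap in this ratio (log2 difference 0.20, exact permutation p = 0.1, the smallest possible). H2-K1, H2-D1 and B2m together took 0.351% ± 0.0093 of the reads in DAHB libraries and 0.3105% ± 0.0103 in NaCl libraries (SD, n = 3), a difference of 0.04 percentage points in which the groups did not overlap (exact permutation p = 0.1). The ratio and the share both include H2-D1, the only gene of the 3 that passed the test. Mean counts in DAHB and NaCl cells were 45382 and 34481 for H2-D1, 42202 and 40387 for H2-K1, and 34207 and 33497 for B2m.

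**Figure D4:**
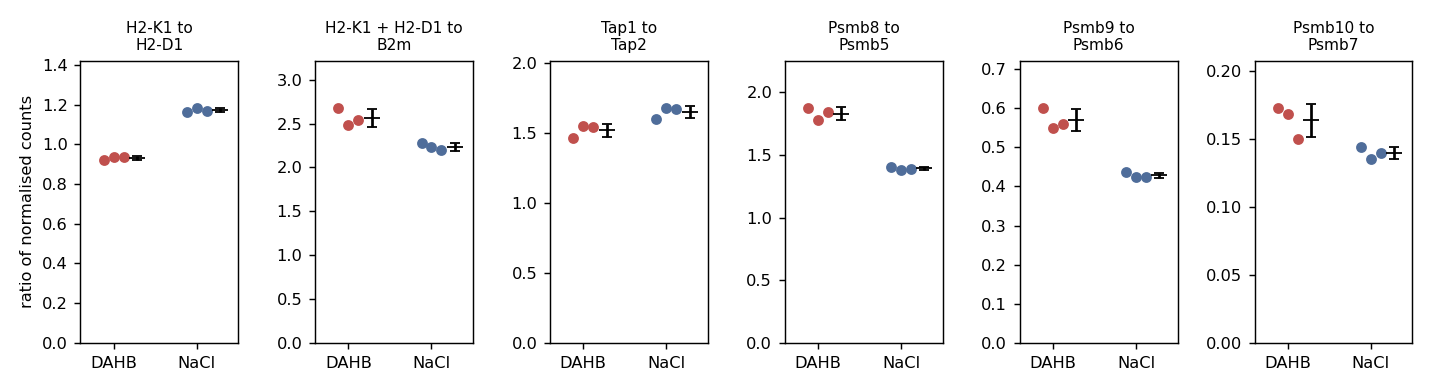
Ratios of normalised counts within each library (vertical axes, each from 0) in DAHB (red, left) and NaCl libraries (blue, right), with mean and SD. H2-K1 to H2-D1 lies at 0.920 to 0.936 in DAHB libraries and at 1.16 to 1.18 in NaCl libraries. In each of the 6 panels the groups are apart, which was not counted for other gene pairs.

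The 2 transporter genes are neighbours on chromosome 17, where the immunoproteasome gene Psmb8 lies between them and Psmb9 before Tap1. Tap1 (ENSMUSG00000037321, chr17:34187553-34197225, plus strand) had 9547, 9846 and 9566 in DAHB libraries, against 10821, 10070 and 10740 in NaCl libraries. All DAHB libraries were lower, NaCl replicate 2 lying close to them, and Tap1 fell to 0.916 of its NaCl level (log2 fold change -0.13, SE 0.043, adjusted p = 0.0222). Tap1 did not pass under quantile normalisation (-0.07, adjusted p = 0.152) or on leaving out DAHB replicate 3 (-0.12, adjusted p = 0.0771), NaCl replicate 1 (-0.11, adjusted p = 0.110) or NaCl replicate 3 (-0.11, adjusted p = 0.0953). Tap2 (ENSMUSG00000024339, chr17:34203527-34216321, plus strand) had 6522, 6355 and 6198 in DAHB libraries, against 6746, 5994 and 6414 in NaCl libraries. The 3 DAHB libraries lay within the range of the NaCl libraries, and the log2 fold change of 0.00 (-0.0045) had a 95% interval of -0.11 to 0.10 (adjusted p = 0.947). The ratio of Tap1 to Tap2 was 1.52 ± 0.0478 in DAHB cells and 1.65 ± 0.0423 in NaCl cells (SD, n = 3), without overlap (log2 difference -0.12, exact permutation p = 0.1). Tap1 shares 212 exon bases with Psmb9 on the opposite strand, and Tap2 shares 533 and 165 with the antisense RNAs Gm15821 and Gm20496. The strand setting of the authors' counting is not given in the sources used here, so reads of such pairs cannot be told apart.

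Tapbp (ENSMUSG00000024308, chr17:33915899-33929292, plus strand) encodes tapasin, which bridges the heavy chain to the transporter and favours the binding of stable peptides. Its counts were 5114, 4732 and 4627 in DAHB libraries, against 6399, 6199 and 6424 in NaCl libraries. The highest DAHB library was below the lowest NaCl library, and Tapbp fell to 0.761 of its NaCl level (log2 fold change -0.40, SE 0.047, adjusted p = 6.76e-06). Tapbp shares 149 exon bases with Zbtb22 on the same strand and 904, or 24.9% of its exon bases, with the antisense RNA Gm19412. Zbtb22 averaged 804 in DAHB cells and 948 in NaCl cells (log2 fold change -0.24, SE 0.059), so its reads are few beside those of Tapbp. Among 18 loading partners and quality control genes of the endoplasmic reticulum that were tested, 2 rose, 7 fell and 9 did not pass, with a median of 0.02. All 18 averaged 1000 or more, and among such genes 45.3% fell and 22.9% rose, so the falls were not more frequent than in the background. The tapasin-related editor Tapbpl fell to 3028 ± 107 in DAHB cells, against 4153 ± 55.2 in NaCl cells (log2 fold change -0.46). The glucosidase Mogs (-0.69) and the export receptor Bcap31 (-0.53) fell, and Uggt1, which re-glucosylates misfolded chains and edits peptide with Tapbpl, rose (0.35). The lectin chaperones Calr and Canx did not pass the test (log2 fold changes of 0.11 and 0.07, adjusted p = 0.0863 and 0.220), nor did Pdia3, the oxidoreductase bound to tapasin (0.05, adjusted p = 0.310). Without DAHB replicate 1 these 3 passed as higher (Calr 0.16, Canx 0.11, Pdia3 0.09, adjusted p = 0.000728 to 0.0405). Calr also passed with equal library totals (0.11, adjusted p = 0.0324) and Pdia3 under quantile normalisation (0.10, adjusted p = 0.0208), where Calr was at -0.01.

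Erap1 (ENSMUSG00000021583, chr13:74639568-74693201, plus strand) encodes the aminopeptidase that trims the amino end of peptides in the endoplasmic reticulum. It had the greatest change of the 8, with 3460, 3680 and 3817 in DAHB libraries, against 6136, 5995 and 6175 in NaCl libraries. The highest DAHB library was far below the lowest NaCl library, and Erap1 fell to 0.599 of its NaCl level (log2 fold change -0.74, SE 0.047, 95% interval -0.84 to -0.64, adjusted p = 1.39e-08). Erap1 shares 834 exon bases, 11.5% of its own, with Cast on the opposite strand. Cast, which encodes the calpain inhibitor calpastatin, had 2384 ± 163 in DAHB cells and 2724 ± 115 in NaCl cells (log2 fold change -0.19, adjusted p = 0.00947), a smaller difference in the same direction that did not pass under quantile normalisation (-0.09, adjusted p = 0.198). Other peptidases that act on the same peptides in the cytosol fell in 6 of 11 tested and rose in 2, with a median of -0.13. All 11 averaged 1000 or more, and among such genes 45.3% fell and 22.9% rose, so these counts are near the background. Tpp2, which cuts long proteasome products, fell (-0.35), as did the aminopeptidases Rnpep (-0.39) and Rnpepl1 (-0.40), and Dpp3 rose (0.41). The insulin-degrading enzyme Ide fell (-0.13) and the prolyl peptidase Prep did not pass (-0.08, adjusted p = 0.115). The call of Ide was lost under quantile normalisation (-0.07) and without DAHB replicate 2, NaCl replicate 2 or NaCl replicate 3 (-0.13 to -0.11, adjusted p = 0.0545 to 0.0728).

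The proteasome subunits that supply the transporter were mixed. Of 8 immunoproteasome and PA28 genes 2 rose, 4 fell and 2 did not pass. Of these 8, 7 averaged 1000 or more, and among such genes 22.9% rose and 45.3% fell, so these counts are near the background. Psmb9 (chr17:34181987-34187764, minus strand), the immunoproteasome subunit that shares a promoter region with Tap1, rose to 4777 ± 121 in DAHB cells, against 3051 ± 190 in NaCl cells (log2 fold change 0.65, adjusted p = 1.33e-07), while Tap1 fell. Psmb8 rose (0.15), and Psmb10 did not pass (0.09, adjusted p = 0.242). The PA28 activator genes Psme1, Psme2 and Psme2b (-0.22, -0.21 and -0.25) and the assembly factor Pomp (-0.22) fell, and Psme3 did not pass (-0.06, adjusted p = 0.212). Of the constitutive subunits that these replace, Psmb5 and Psmb7 fell (-0.25 and -0.14) and Psmb6 rose (0.24). Several of the smaller changes were lost when a single library was left out: Psmb8 did not pass without NaCl replicate 2 (0.11, adjusted p = 0.0762), Psme2b without DAHB replicate 2, DAHB replicate 3 or NaCl replicate 1 (adjusted p up to 0.0946), and Psmb7 without DAHB replicate 1, NaCl replicate 1 or NaCl replicate 3 (adjusted p up to 0.141) or under quantile normalisation (-0.08) or with a replicate block (adjusted p = 0.0590). The ratio of Psmb8 to Psmb5 was 1.83 ± 0.0511 in DAHB cells and 1.39 ± 0.0132 in NaCl cells, that of Psmb9 to Psmb6 was 0.570 ± 0.0272 in DAHB cells and 0.428 ± 0.0064 in NaCl cells, and that of Psmb10 to Psmb7 was 0.164 ± 0.0121 in DAHB cells and 0.140 ± 0.0044 in NaCl cells (SD, n = 3 each). None of the 3 ratios overlapped between the groups, and each exact permutation p was 0.1, or 0.1 after adjustment over the 6 ratios computed. How often ratios of other gene pairs lie apart was not counted, so these 6 have no background. Of single genes, 63.4% of all tested and 72.1% of those with a mean of at least 1000 lay apart.

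**Figure D5:**
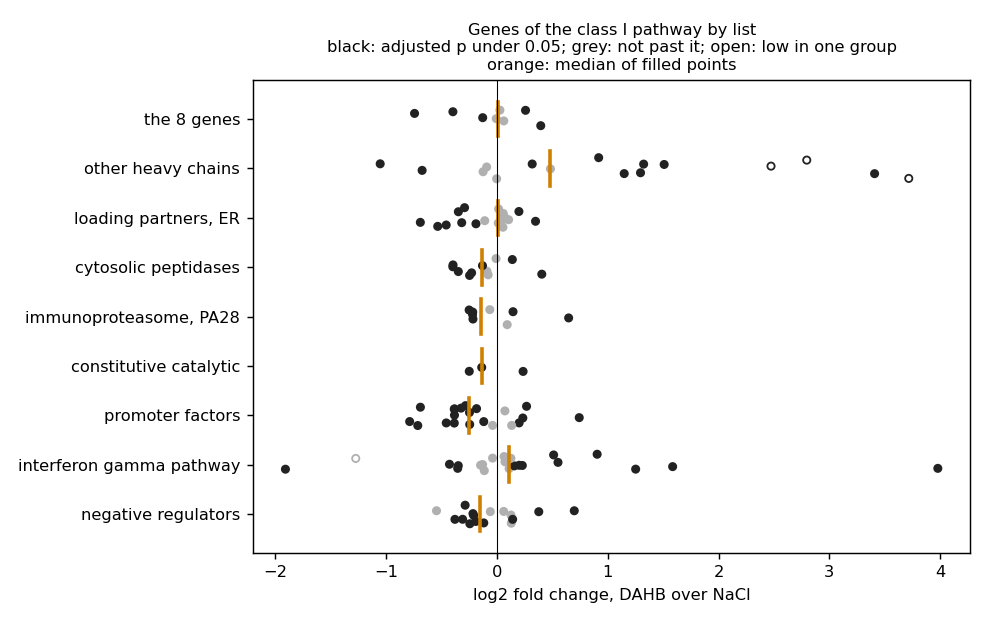
Log2 fold change, DAHB over NaCl (horizontal axis), of each tested gene in the 8 described and in 8 other lists of the pathway, with the list median as an orange line, black where the adjusted p was under 0.05. Open points are genes below the minimum of 10 in a library of either group, which the medians leave out. The 8 genes have a median of 0.01 and the other heavy chains one of 0.48, and the medians of the other lists lie between -0.25 and 0.11.

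Nlrc5 (ENSMUSG00000074151, chr8:94434356-94527272, plus strand) encodes the class I transactivator. Its counts were 2661, 2153 and 2163 in DAHB libraries, against 1933, 1989 and 1877 in NaCl libraries. All DAHB libraries were higher, and DAHB replicate 1 stood well above the other two, which were close to each other. Nlrc5 rose (log2 fold change 0.26, SE 0.072, adjusted p = 0.00692), and without DAHB replicate 1 the log2 fold change was 0.16 (adjusted p = 0.00946). Beside the rise of Nlrc5, H2-D1, Psmb9 and Psmb8 rose, Tap1 fell, and H2-K1, B2m, Tap2 and Psmb10 did not pass the test. The 5 genes most like Nlrc5 over the 6 libraries, of 10200 compared, were Lmnb2, Zmiz2, Vav2, Adamts10 and Bcorl1, with a Pearson r of log2 values of 0.994 to 0.998. In each of them DAHB replicate 1 was the highest library, as in Nlrc5, and 109 genes reached an r of 0.95, so the likeness is a description of 6 points in 2 groups. Without DAHB replicate 1 the log2 fold changes of Lmnb2 (0.23), Zmiz2 (0.21) and Vav2 (0.20) were 0.14, 0.13 and 0.13.

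Of the 21 factors tested that bind or act at class I promoters, 14 fell, 4 rose and 3 did not pass, with a median of -0.25. Over all genes tested 29.1% fell, and over genes with a mean of at least 1000, to which 14 of the 21 belong, 45.3% fell. Of the RFX complex, to which NLRC5 binds, Rfx5 fell to 332 ± 6.39 in DAHB cells, against 535 ± 17.6 in NaCl cells (log2 fold change -0.69), Rfxap fell (-0.38) and Rfxank had 226 ± 2.33 in DAHB cells and 215 ± 25.2 in NaCl cells (adjusted p = 0.606). The NF-kappaB subunits Rela, Relb and Nfkb1 fell (-0.38, -0.38 and -0.12), as did the acetyltransferase Kat2b (-0.79) and the interferon factor Irf9 (-0.71). Irf8, the most changed of those that rose, had 35341 ± 1063 in DAHB cells and 21107 ± 745 in NaCl cells (0.74), and Nfyb (0.27) and Irf2 (0.24) also rose. Irf1, which binds the interferon response element, had 2029 ± 202 in DAHB cells and 2076 ± 11.9 in NaCl cells (log2 fold change -0.04, adjusted p = 0.640), and passed as lower without DAHB replicate 1 (-0.12, adjusted p = 0.0426). The call of Nfkb1 was lost when any of the libraries except DAHB replicate 1 was left out (-0.13 to -0.10, adjusted p = 0.0615 to 0.139), and with a replicate block (-0.12, adjusted p = 0.102). Rfxap, Rfxank, Rela, Relb, Irf1, Irf2 and Nfyb were named after their values were seen.

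Ifng, the cytokine that induces this pathway, rose (log2 fold change 3.98). Of the 21 other genes of interferon gamma signalling and its common targets 8 rose, 4 fell and 9 did not pass, with a median of 0.07, against 29.4% higher and 29.1% lower over all genes tested. The guanylate-binding protein genes Gbp7 (1.59) and Gbp3 (1337 ± 91.3 in DAHB cells and 561 ± 34.7 in NaCl cells) and the inhibitor Socs3 (0.91) rose, and the kinase Jak2 fell (-0.43). The guanylate-binding protein genes did not all go one way: Gbp2, the most abundant of them, fell to 8672 ± 451 in DAHB cells, against 11022 ± 253 in NaCl cells (-0.35, adjusted p = 1.98e-05), Gbp4 rose (0.51), and Gbp5 and Gbp6 did not pass (0.11 and 0.07, adjusted p = 0.0799 and 0.529). The chemokine gene Cxcl10 fell (-1.91). Gbp2, Gbp4, Gbp5, Gbp6, Cxcl9 and Cxcl10 were named after their values were seen. Of 16 genes that lower class I, 3 rose and 8 fell, with a median of -0.15. Of these 16, 14 averaged 1000 or more, and among such genes 22.9% rose and 45.3% fell, so these counts are near the background. Among the 16, Marchf9, a ubiquitin ligase of class I in human cells, rose (0.70), as did Ezh2 of the Polycomb complex (0.38), whose partner Suz12 fell (-0.21), and the ubiquitin ligase Syvn1 of the endoplasmic reticulum fell (-0.38). Of 9 class I-like NKG2D ligands only Ulbp1 was in the table, and it rose to 808 ± 52.1 in DAHB cells, against 604 ± 13.2 in NaCl cells (0.42).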

How the data were processed

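The libraries, 3 from CD8 T cells given DAHB and 3 from cells given NaCl, were grouped by the labelled treatment. Per the submitters' processing notes the reads went through Trimmomatic 0.36, STAR 2.5.2b, featureCounts 1.5.2 and DESeq2 (GRCm38). The annotation release and strand setting are not given in the sources used here. The table the authors deposited holds a signal, namely gene read counts scaled by a size factor for each library. Every value (100%) was a whole multiple of 1 read's worth, to within 0.001, and the reads so recovered went into edgeR 4.0.16 (8084 genes called) and DESeq2 1.42.0 (7670) as alternatives to limma (8071). Of the 13883 genes, 59 lacked a symbol.

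A gene was tested if 3 or more libraries reached a normalised count of 10, which left 13804. The test was limma-trend (limma 3.58.1, R 4.3.3) on log2(normalised count + 1), two-sided, Benjamini-Hochberg adjusted, threshold 0.05. Fold changes have this scale, on which those of low genes come out too small. Within groups, libraries differed beyond sampling noise (chi-square over its degrees of freedom from 4.66 to 17.6), so none was a repeat deposit. Ratios and read shares had exact permutation tests. The limma procedure was tested on simulated data. Coordinates and exons are from GENCODE M21 (13854 identifiers found), upstream windows from RefSeq on GRCm38.p6. Windows were aligned with Biopython 1.88, and Python 3.11.15 with pandas 2.3.3, scipy 1.17.1 and matplotlib 3.10.9 made the tables and figures.

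The 8 genes and the lists were chosen with earlier results of these data known. The text names all 8. From every other list it takes at most 4 genes, those with the largest change that passed and had a mean of 100 or more in either group, and the 2 most abundant. It adds the genes in the ratios, those overlapping the 8 and the 5 most like Nlrc5. To complete small counts or complexes, Cd4, Csf1r, Cxcl9, Cxcl10, Fcgr1, Gbp2, Gbp4, Gbp5, Gbp6, Gm8909, H2-M3, H2-Q2, H2-Q4, H2-Q6, Irf1, Irf2, Itgax, Nfyb, Pdia3, Psme2, Rela, Relb, Rfxank and Rfxap were named after their values were seen. Some genes the rule takes are not described. The alternatives, besides edgeR and DESeq2, were pseudocounts of 0.5 and 10, no filter, a minimum of 50, equal totals for all libraries, quantile normalisation, limma's robust prior, a replicate block, and leaving out each library.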

Additional observations from a re-analysis of the deposited data

How the results depend on the processing

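Under 16 alternatives H2-D1 (log2 fold change 0.30 to 0.42), Nlrc5 (0.16 to 0.35), Tapbp (-0.44 to -0.30) and Erap1 (-0.77 to -0.65) kept their direction and passed the test each time, so that 2 or 3 of the 8 genes rose and 2 or 3 fell. Tap1 did not pass under quantile normalisation (-0.069, adjusted p = 0.152), nor with a replicate block (-0.13, adjusted p = 0.0565), and with 1 library left out it ranged from -0.16 to -0.11, passing in 3 of 6 such fits. H2-K1, B2m and Tap2 had other signs under quantile normalisation (-0.048, -0.057 and 0.085), which moved the median of all genes to -0.07, and Tap2 also with equal library totals (0.0025). With 1 library left out, H2-K1 ranged from 0.035 to 0.091 (past the threshold at 0.091, without DAHB replicate 1), B2m from -0.020 to 0.083 and Tap2 from -0.049 to 0.036. The 6 ratios and the read share kept their direction in all alternatives run, where the smallest possible exact p was 0.25 with the replicate block and 0.2 with 1 library left out. Of 75 other genes followed, 53 kept their sign and their side of the threshold in all alternatives and 22 did not. H2-T23 was 0.050 under quantile normalisation, 0.0060 with equal totals, 0.0035 in edgeR and -0.026 to 0.016 with 1 library left out. Under quantile normalisation Calr was -0.0095, Trbc2 0.044, Cd40lg -0.44, Irf1 0.055 and Rfxank -0.20. With 1 library left out Trbc2 ranged from -0.043 to 0.019, Cd40lg from -0.054 to 0.20, Irf1 from -0.12 to 0.017 and Rfxank from -0.024 to 0.14. Same-numbered libraries did not deviate together (r of -0.05, -0.15 and 0.04 across genes). No pairing by number was thus seen, but these correlations are too few to exclude it. The replicate block gave 7772 calls, against 8071, and Tap1 was the only one of the 8 whose call it changed. The cause of these shifts was not tested. Depth is no limit for the 8 genes, whose lowest count was 1877, but 3 libraries a group cannot give a permutation p under 0.1.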
